A study of Drosophila melanogaster with 8 samples.

Results

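The 10 genes CG15537, CG12656, CG15308, CG9877, CG12868, CG30148, CG30289, CG3625, CG4927 and CG7222 are Drosophila genes that the array files list by an annotation number, with no full name. They were taken by name, from among genes already known in these data to give more signal in the larval heart than in the larval aorta, out of 13303 genes on the arrays (5628 of them known by a number). They are read by 11 of 14456 oligonucleotides, since CG3625 has 2. The difference between heart and aorta therefore chose the genes and is given as a description, while the difference between dorsal vessel and whole larva did not enter the choice and was tested.

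Heart and aorta came from hand-dissected L3 larvae (the last larval instar), cut apart at the valve between them, and 10 hearts or 10 aortae were pooled for each RNA. Entire dorsal vessels and whole larvae were pooled from 5 individuals for each RNA. All RNAs came from 1 strain, WT (yw; Canton S), kept at 25 °C, so that no group differed in genotype or treatment. Each of the 8 arrays carried a pair of amplified RNAs in different dyes, with 4 arrays for heart over aorta and 4 for dorsal vessel over whole larva, and the dyes were exchanged between replicates 1 and 2 and replicates 3 and 4 of each set. The whole larva contains the dorsal vessel, and a hand-dissected vessel can carry cells that lie against it.

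The dorsal vessel pumps the hemolymph of the fly. Its posterior part, the heart, has a wider lumen, inflow valves and a beating wall, and its anterior part, the aorta, carries the flow toward the head. Pericardial nephrocytes, alary muscles and blood cells lie along it, so the RNA of a dissected vessel is that of several cell types, and in such bulk RNA fewer cells of a type and less RNA per cell cannot be told apart.

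What the genes encode is known from the annotation for 4 of the 10. The files give CG15537 the function of binding adrenocorticotropin-releasing hormone, and the reference lists crhbp as its synonym. A binding protein of this kind captures the free hormone in vertebrates, and the related fly hormone is the diuretic hormone Dh44. CG30289 and CG4927 are annotated as serine-type endopeptidases, with chymotrypsin and trypsin activity. Such enzymes are often secreted as inactive precursors, and some act one after another in cascades of the hemolymph. CG30148 is annotated with glucosidase activity, carbohydrate metabolism and defense response. The files give no function for CG12656, CG15308, CG9877, CG12868, CG3625 and CG7222. The current reference has an entry for 9 of the 10, and not for CG12656. Of these 9, 6 lie on chromosome arm 2R (CG9877, CG12868, CG30148, CG30289, CG4927 and CG7222), and CG15308 lies on X, CG3625 on 2L and CG15537 on 3R.

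Signals are given in relative fluorescence units (RFU) after background correction and normalisation, and can be compared between RNAs for 1 oligonucleotide but not between genes. Per channel, 32.3 to 55.2% of the oligonucleotides were above the detection level, set at the 95th percentile of the spots with a negative control or no oligonucleotide. Across genes, the log2 ratios of the 4 vessel arrays correlated with each other at r = 0.778 to 0.865. Those of the 4 heart arrays correlated at r = -0.503 to 0.431, the lowest between replicates 1 and 3, whose dye orientations are stated in the labels and opposite. As a check of the tissue, Hand was higher in vessel than in larva (log2 5.56), as were H15 (3.43), pnr (1.18) and mid (0.89), while svp (-2.19) and Mhc (-1.91) were lower. These were the 6 of 11 cardiomyocyte markers tested that passed.

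All 10 genes had more signal in heart than in aorta on all 4 arrays, which chose them, against 11.8% of 6911 genes measured. Nothing is read from that count. The 10 log2 ratios ran from 0.48 to 2.71, with a median of 1.07, against a median of -0.01 over all genes measured, and placed the genes 5th to 476th in the order of that ratio. In 7 of the 10 the lowest heart signal lay above the highest aorta signal (4.91% of all genes). The other 3 were CG12868, CG30289 and CG3625.

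CG15537 had the largest ratio of the 10. Its signal was 14.4, 27.0, 26.3 and 31.2 RFU in hearts, against 3.23, 4.24, 3.30 and 3.89 RFU in aortae (replicates 1 to 4). The mean was 24.7 ± 7.19 RFU in heart and 3.67 ± 0.48 RFU in aorta (SD, n = 4 each), and the lowest heart was well above the highest aorta. The aorta was above the detection level on 2 of the 4 arrays only, and in heart the gene was above it on all 4. The log2 ratio was 2.71 with an SE of 0.12, or 6.52-fold. The size of the ratio depended on the background step: with no background correction the mean was 3.89.

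CG12656, CG15308 and CG9877 followed. CG12656 had 33.7, 50.4, 84.0 and 75.6 RFU in hearts, against 11.6, 14.7, 13.5 and 18.4 RFU in aortae (log2 ratio 1.99, SE 0.14, 3.98-fold). CG15308 had 144, 177, 537 and 212 RFU in hearts, against 22.0, 31.6, 39.2 and 96.1 RFU in aortae (2.53, SE 0.49, 5.76-fold). CG9877 had 26.3, 20.0, 48.2 and 19.0 RFU in hearts, against 5.10, 6.05, 5.93 and 5.64 RFU in aortae (2.22, SE 0.27, 4.65-fold). In none of the 3 did the hearts and aortae overlap. CG15308 had the widest spread between arrays of the 10 (SD 1.08 on the log2 scale), with its highest heart on replicate 3 and its highest aorta on replicate 4.

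CG30148, the annotated glucosidase, had 81.4, 99.2, 68.7 and 76.3 RFU in hearts, against 45.3, 41.5, 30.1 and 34.0 RFU in aortae (log2 ratio 1.12, SE 0.10). Of the annotated proteases, CG4927 had 15.9, 24.2, 26.4 and 18.9 RFU in hearts, against 10.1, 12.01, 11.2 and 11.9 RFU in aortae (0.89, SE 0.14). CG30289 had 12.8, 23.1, 18.2 and 28.3 RFU in hearts, against 7.84, 7.62, 10.4 and 14.7 RFU in aortae (1.01, SE 0.18). The hearts and aortae of CG30148 and CG4927 did not overlap, and those of CG30289 did, through the high aorta of replicate 4.

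The remaining ratios were the smallest. CG12868 ran from 9.08 to 27.0 RFU in hearts, against 6.55 to 11.8 RFU in aortae (log2 ratio 0.88, SE 0.08). CG3625 ran from 35.0 to 58.6 RFU in hearts, against 22.7 to 38.3 RFU in aortae (0.62, SE 0.08). CG7222 ran from 9.20 to 12.1 RFU in hearts, against 7.19 to 8.34 RFU in aortae (0.48, SE 0.07). For CG12868 and CG3625 the ratio went with the dye orientation. The mean of replicates 1 and 2, with heart in Cy5, was 0.46 and 0.32. The mean of replicates 3 and 4, with heart in Cy3, was 1.29 and 0.91. For CG15537, CG12656 and CG7222, too, both ratios with heart in Cy3 lay above both with heart in Cy5. Their means were 2.41, 1.65 and 0.37 with heart in Cy5, against 2.997, 2.33 and 0.59 with heart in Cy3. In the other genes the ratios of the dye orientations overlapped.

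**Figure D1:**
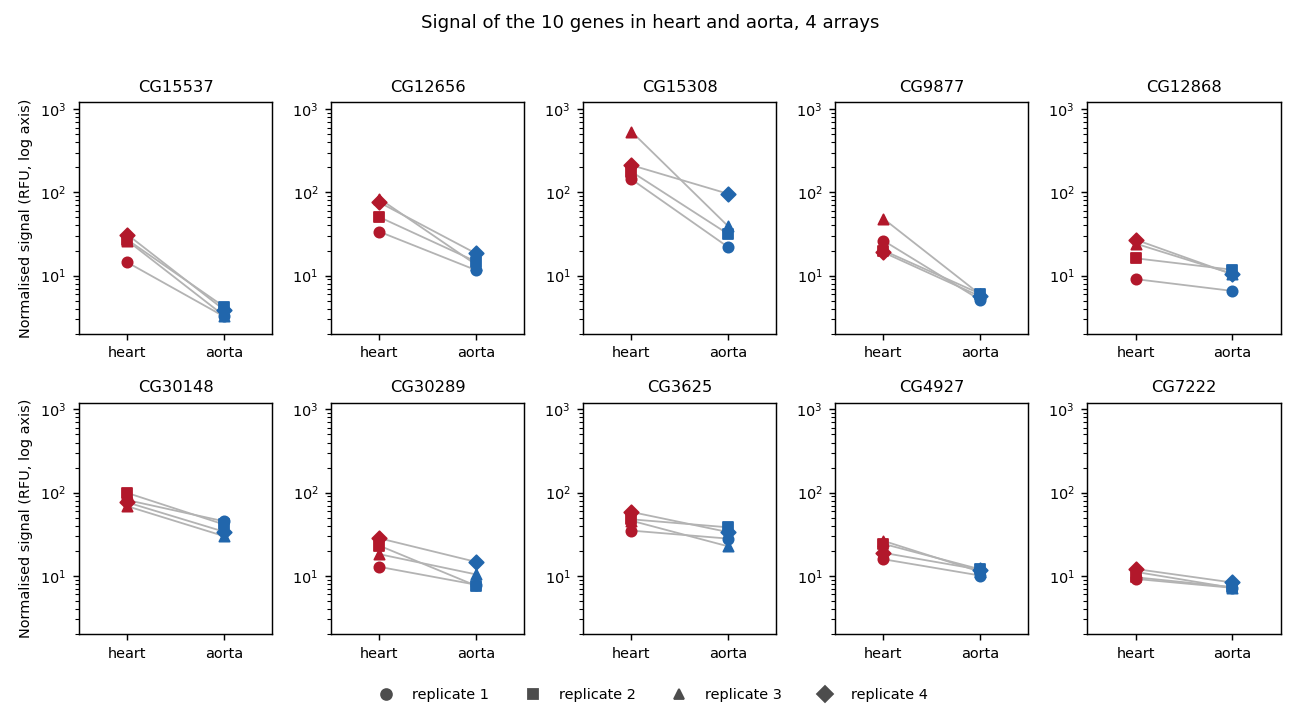
Normalised signal (RFU, log axis) of each of the 10 genes in heart (left, red) and aorta (right, blue), with 1 symbol per replicate and a line joining the RNAs of 1 array. Every heart lies above the aorta of its array, by which the genes were chosen, and the hearts of CG15308 reach 537 RFU.

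Between dorsal vessel and whole larva the 10 genes parted. CG4927, CG3625, CG30148 and CG12868 were higher in the vessel, by 1.51-fold to 3.11-fold, and CG15308 and CG9877 were lower by 15.5-fold and 10.7-fold. CG30289, CG7222, CG15537 and CG12656 did not pass the test, at log2 ratios of 0.61, 0.31, 0.36 and 0.08. That is 4 of 10 higher, against 12.6% of 7437 genes tested, and 2 of 10 lower, against 22.9% (limma on the 4 vessel arrays, threshold 0.05 after Benjamini-Hochberg adjustment over all genes tested). The median log2 ratio of the 10 was 0.48, against -0.05 over all genes tested and -0.14 over the 2794 numbered genes tested, of which 10.1% were higher and 26.7% lower. These comparisons describe the 10 genes, and as they were picked by hand they stand for no larger group.

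The annotated protease CG4927 was the highest of the 10 in vessel over larva. Its signal was 30.8, 10.6, 17.9 and 13.3 RFU in dorsal vessels, against 8.24, 4.69, 5.75 and 3.74 RFU in whole larvae. The lowest vessel was above the highest larva (11.1% of all genes were higher without overlap), and the vessel was higher on 4 of 4 arrays. The log2 ratio was 1.64 (SE 0.16, limma adjusted p = 0.00173), which is 84th from the top of 7437 genes. CG30289, the other annotated protease, had 13.3, 15.3, 12.2 and 14.0 RFU in dorsal vessels, against 10.98, 9.22, 10.1 and 6.18 RFU in whole larvae. The groups did not overlap and all 4 ratios were positive, but at 0.61 the gene missed the test (SE 0.19, limma adjusted p = 0.0567).

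Other genes listed or annotated as proteases were more often lower than higher in the vessel, as were all genes tested (22.9% lower, 12.6% higher). Of the 25 genes on the arrays from a list of protease cascades of hemolymph and embryo, 13 were tested in vessel over larva. Of these, 0 were higher, 7 lower and 6 not past the test (limma, 0 and 9 at an unadjusted p below 0.05). Their median log2 ratio was -0.50. In the vessel 18 of the 25 were above detection on 0 arrays. Genes such as ea and SPE (0 vessel arrays) and mas (1) were tested through the larva alone, so the detection filter largely set their direction. The lower ones included Sp7, of the melanization cascade (-1.84, SE 0.13, above detection in the vessel on 1 of 4 arrays), grass, of the Toll pathway (-1.40, SE 0.13), CG1299 (-2.30, SE 0.25, above detection in the vessel on 2) and SPH93, which was not above detection in the vessel and was at least 1.95-fold lower there. Among 173 genes that the files annotate as serine-type endopeptidases, both CG4927 and CG30289 included, 79 were tested. Of these, 6 were higher in vessel, 36 lower and 37 not past the test, with a median of -0.44. Here 119 of the 173 were above detection in the vessel on 0 arrays. The 4 with the smallest adjusted p were Jon99Ciii, yip7, Jon66Ci and Jon65Ai, digestive proteases of the gut (log2 ratios of -5.90, -4.07, -4.91 and -3.90). The 6 higher ones were CG4927, CG30283 (1.92), CG18478 (1.81), CG4259 (1.04), CG10764 (0.96) and CG3505 (0.85). In heart over aorta CG4927 had 0.89, CG3505 0.35, CG10764 0.34, CG4259 0.30, CG18478 -0.59 and CG30283 -2.17. The other 5 are named for their small number, after their values were seen.

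CG3625 was higher in the vessel on 4 of 4 arrays. Its signal was 76.7, 41.2, 27.4 and 28.4 RFU in dorsal vessels, against 32.2, 15.6, 19.5 and 14.8 RFU in whole larvae. The log2 ratio was 1.02 (SE 0.13, limma adjusted p = 0.00399), although the groups overlapped across arrays because replicate 1 was bright in both RNAs. This ratio too went with the dye orientation. Its mean was 1.33 on replicates 1 and 2, with vessel in Cy3, and 0.71 on replicates 3 and 4. These values come from the oligonucleotide common to the transcripts RA and RB. The second oligonucleotide, of RB alone, was close to background. It had 3.84, 4.2, 3.77 and 3.74 RFU in dorsal vessels, against 3.29, 2.97, 3.77 and 3.25 RFU in whole larvae, and was above detection on 3 vessel and 2 larva arrays (log2 ratio 0.23, limma adjusted p = 0.171 in a fit by oligonucleotide). In heart over aorta its ratio was 0.08, with 3.85 to 5.04 RFU in hearts, against 3.70 to 4.51 RFU in aortae. It was above detection on 4 heart and 4 aorta arrays. The higher signal of CG3625 in vessel was thus measured by the common oligonucleotide.

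CG30148 and CG12868 passed the test more narrowly. CG30148 had 97.4, 61.3, 126 and 53.0 RFU in dorsal vessels, against 42.3, 47.8, 60.9 and 33.6 RFU in whole larvae. It was higher in the vessel on 4 of 4 arrays, with overlap across arrays (log2 ratio 0.82, SE 0.18, limma adjusted p = 0.0224). CG12868 had 24.0, 13.4, 9.62 and 10.2 RFU in dorsal vessels, against 12.4, 6.79, 9.95 and 7.17 RFU in whole larvae. It was higher on 3 of 4 arrays, with overlap (0.60, SE 0.13, limma adjusted p = 0.0246). Its ratio went with the dye orientation here too. The mean was 0.97 on replicates 1 and 2, with vessel in Cy3, and 0.23 on replicates 3 and 4. With no dye coefficient in the fit, CG12868 missed the test (SE 0.20, limma adjusted p = 0.0628). CG30148 missed the test without replicate 1, 3 or 4 (limma adjusted p = 0.0663, 0.0764 and 0.0615), and CG12868 without replicate 1, 2 or 4 (0.0813, 0.104 and 0.0759).

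Of genes with related annotation, GNBP1 and GNBP3, whose products belong to a family of glucan-binding recognition proteins with a glucanase-like domain, were tested beside CG30148. GNBP2 and GNBP-like3, also on this list, were above detection in vessel and in larva on 0 arrays and were not tested there. GNBP3 was above detection in vessel on 0 arrays and in larva on 4, and was at least 4.05-fold lower in the vessel, a bound set at the detection level (limma adjusted p = 0.00182), while GNBP1 did not pass (0.03, adjusted p = 0.905).

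CG15308 and CG9877 were higher in heart than in aorta but far lower in the dorsal vessel than in the whole larva. CG15308 had 26.5, 83.6, 37.8 and 41.7 RFU in dorsal vessels, against 743, 528, 851 and 596 RFU in whole larvae. CG9877 had 5.41, 18.1, 8.10 and 14.5 RFU in dorsal vessels, against 51.1, 238, 48.0 and 256 RFU in whole larvae. Neither gene overlapped between the groups (18.0% of all genes were lower without overlap), and both were above detection on every array in both RNAs. The log2 ratio was -3.95 for CG15308 (SE 0.36, limma adjusted p = 0.00159) and -3.42 for CG9877 (SE 0.28, limma adjusted p = 0.00100). They were the 88th and the 140th lowest of 7437 genes. The whole larvae of CG9877 were low on replicates 1 and 3 and high on replicates 2 and 4, and its vessels were also highest on replicates 2 and 4, so the ratio varied less than the signals (SD 0.68 on the log2 scale).

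Markers of the epidermis are given beside these 2 genes. The list held 7 cuticle protein genes, all of them tested in vessel over larva, with a median log2 ratio of -4.78. Of these, 0 were higher and 6 lower (limma), where 22.9% of all genes were lower. Lcp65Ag1, Lcp65Ag2 and Ccp84Ab were above detection in the vessel on 0, 0 and 1 arrays and were tested through the larva alone. The summed signal of the list was 48.6 to 184 RFU in dorsal vessels, against 2643 to 4071 RFU in whole larvae. In heart over aorta 5 of the 7 were measured, with 4 mean ratios above 0, a median of 1.99 and 0 past the test (limma, 3 higher at an unadjusted p below 0.05). Their summed signal was 581 to 2073 RFU in hearts, against 155 to 717 RFU in aortae. By array, the median of the list in heart over aorta was 1.19, -0.11, 4.31 and 1.57. On the same arrays CG15308 had 2.70, 2.48, 3.77 and 1.14, and CG9877 had 2.36, 1.73, 3.02 and 1.75. All 3 were highest on replicate 3. Without replicate 3 the mean of CG15308 was 1.87 and that of CG9877 was 1.90, and without replicate 4 they were 3.18 and 2.53. On replicate 2 both genes were above 0 while the list median was not. The salivary gland list likewise had a positive median in heart over aorta (0.55, 7 of 7 mean ratios above 0, 0 past the test in limma before or after adjustment) and a negative one in vessel over larva (-5.24, 7 of 7 lower). The part of epidermal or salivary gland RNA in the result was not tested.

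**Figure D2:**
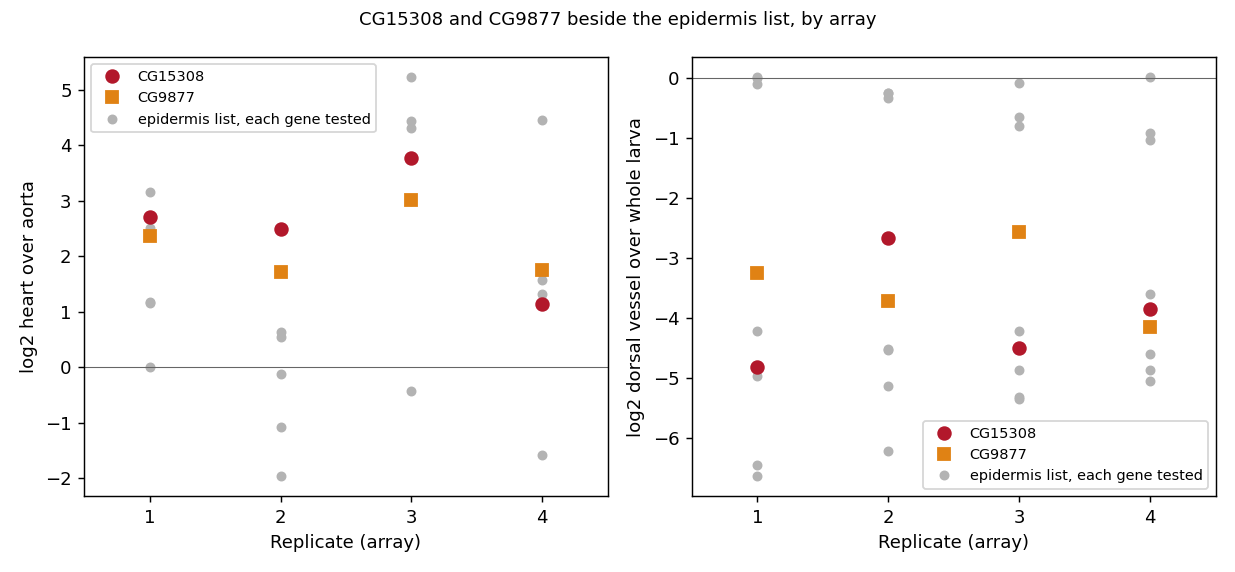
Log2 ratio on each array for CG15308 (red circles), CG9877 (orange squares) and each tested gene of the epidermis list (grey points), in heart over aorta (left) and dorsal vessel over whole larva (right). Both genes lie above 0 on every array at left and between -2.57 and -4.81 at right, where 4 of the grey genes average -4.78 to -5.16 and the other 3 lie nearest to 0.

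Of 6273 genes measured in both comparisons, 92 were higher in heart on all 4 arrays, with a mean ratio of at least 2-fold. Of these 92, 43 were lower in the vessel than in the larva past the test and 17 higher. Lower in the vessel on all 4 arrays, with a mean ratio of at least 4-fold, were 29, among them CG15308 and CG9877. These 29 also held the cuticle protein genes Lcp1 (heart over aorta 2.40, vessel over larva -5.16), Lcp4 (1.99 and -4.78) and Cpr78E (2.06 and -4.92), and the chitinase gene Cht10 (1.59 and -4.62). The folds and the genes named from this group were chosen after the values were seen.

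CG15537, with the largest ratio in heart over aorta, was near background on the vessel arrays. Its signal was 8.55, 3.27, 5.40 and 3.10 RFU in dorsal vessels, against 4.11, 3.29, 3.82 and 3.30 RFU in whole larvae. It was above detection in the vessel on replicates 1 and 3 and in the larva on replicate 3 alone. Those are the arrays with positive ratios (1.06 and 0.50), and the others lay at -0.01 and -0.09. The mean of 0.36 did not pass (SE 0.21, limma adjusted p = 0.231). Of DH44 signalling, the hormone gene Dh44 and the receptor gene Dh44-R1 were above detection on 0 arrays in any RNA. The receptor gene Dh44-R2 had -1.28 in heart over aorta, opposite in sign to CG15537, and 0.35 in vessel over larva (SE 0.13, limma adjusted p = 0.0917).

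CG12656 had 29.9, 16.4, 28.1 and 24.3 RFU in dorsal vessels, against 21.4, 18.9, 30.5 and 21.6 RFU in whole larvae. The vessel was higher on 2 arrays and lower on 2, and the groups overlapped (log2 ratio 0.08, SE 0.15, limma adjusted p = 0.682). CG7222 had 14.8, 10.8, 9.04 and 9.25 RFU in dorsal vessels, against 12.1, 8.25, 7.31 and 7.81 RFU in whole larvae. Its 4 ratios were positive and lay close together (SD 0.06), but the difference was small and did not pass (0.31, SE 0.10, limma adjusted p = 0.0737).

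**Figure D3:**
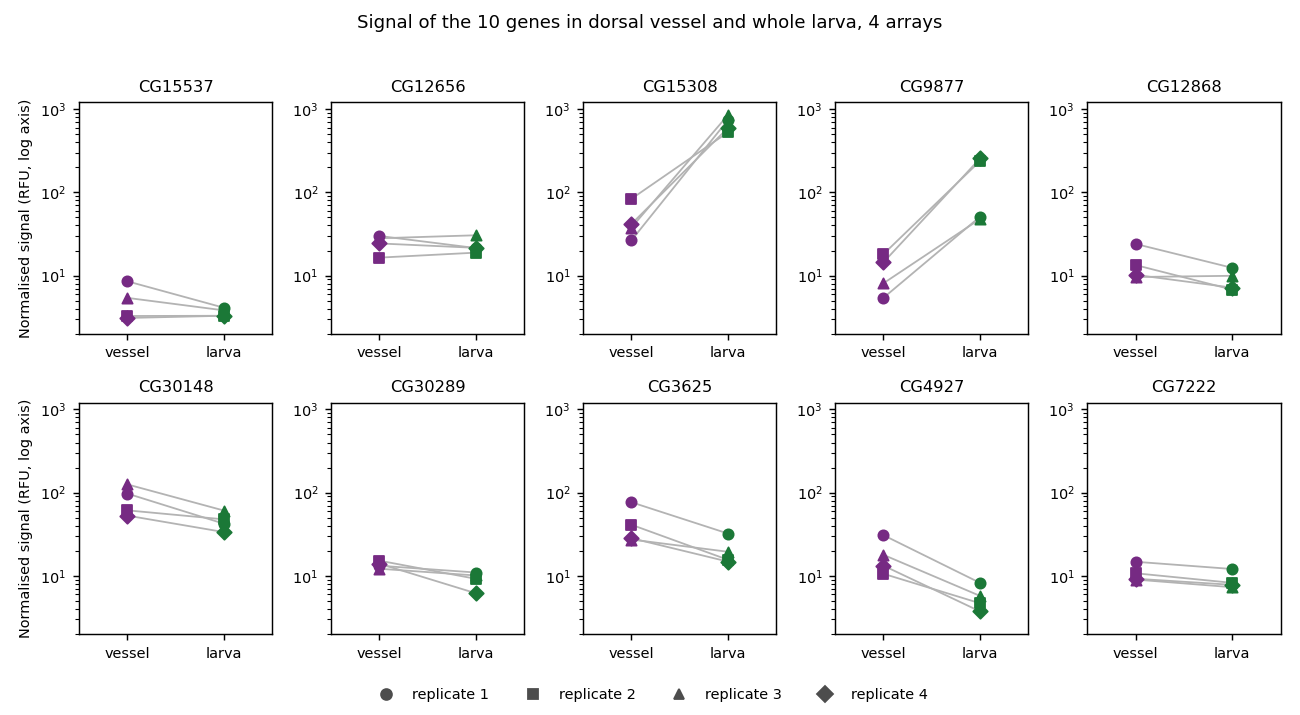
Normalised signal (RFU, log axis) of each of the 10 genes in dorsal vessel (left, purple) and whole larva (right, green), with 1 symbol per replicate and a line joining the RNAs of 1 array. CG15308 and CG9877 are far lower in vessel on every array, with larvae of up to 851 and 256 RFU, and CG4927, CG3625 and CG30148 are higher in vessel on every array.

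Placed by both comparisons, CG15308 and CG9877 had mean ratios of opposite sign, and the other 8 genes had mean ratios above 0 in both. Of the pairs among the 10, CG12868 and CG3625 were nearest to each other (root mean square distance 0.38 over the 8 log2 ratios). CG15537 and CG12656 lay at 0.62 and CG15308 and CG9877 at 1.06. The distance holds no dye term, and the mean ratios of CG12868 and CG3625 were both larger with heart or vessel in Cy3. The part of the dye in their nearness was not tested.

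**Figure D4:**
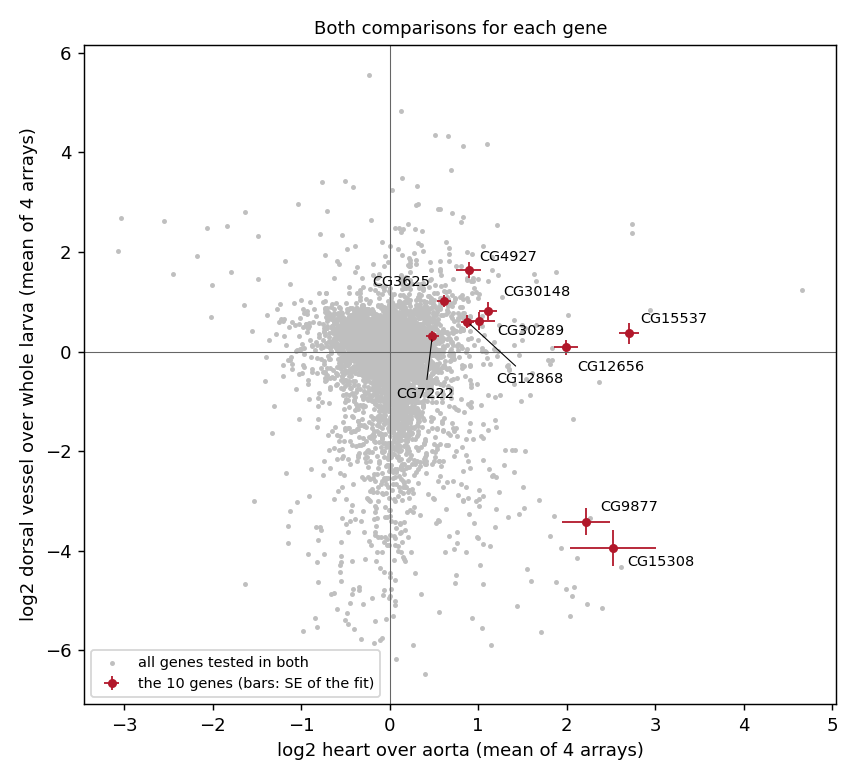
Mean log2 ratio of heart over aorta (horizontal) against dorsal vessel over whole larva (vertical) for the genes tested in both (grey) and the 10 genes (red, with the SE of the fit). The 10 genes lie right of 0 by choice, and run from 1.64 for CG4927 down to -3.95 for CG15308 on the vertical axis.

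By the same distance, the genes outside the 10 that lay nearest to their median profile, among 6177 with values on all 8 arrays, were Ak1, of an adenylate kinase (distance 0.24), the posterior Hox gene abd-A (0.29), comm, of the sorting of a guidance receptor (0.32), BomBc2, of a Toll-induced immune peptide (0.33), and loh, of a matrix protein of the heart (0.33). abd-A had 1.41 in heart over aorta and 0.63 in vessel over larva, and it is known for giving the posterior part of the vessel its heart identity. Each of the 10 also had a nearest gene of its own. For CG15537 it was wun2, of a lipid phosphate phosphatase (0.68), and for CG12656 it was PPO1, of a prophenoloxidase of crystal cells (0.37). PPO1 had 1.79 in heart over aorta and -0.18 in vessel over larva. For CG12868 and CG3625 they were COX7A (0.26) and COX4 (0.19), of subunits of cytochrome c oxidase. CG4927 lay nearest to the lipocalin gene Karl (0.36), CG7222 to mol, of a maturation factor of the oxidase Duox (0.13), CG30148 to comm (0.29) and CG30289 to Ak1 (0.29). CG15308 lay nearest to CG10570 (0.81) and CG9877 to CG3588 (0.78), both at greater distances. These distances describe 8 ratios, of which the 4 of each comparison share their reference tissue, and carry no dye term and no test.

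Of the crystal cell markers 2 were measured in heart over aorta, PPO1 and PPO2, with 1.79 and 2.37. PPO1 passed the test and PPO2 did not (limma adjusted p = 0.0356 and 0.0505). Their list summed to 430 to 921 RFU in hearts, against 88.0 to 157 RFU in aortae, while lz was above detection on 0 arrays. All 8 plasmatocyte markers had a positive mean ratio in heart over aorta, with a median of 0.80, but 0 passed the test and 8 did not (limma, 6 higher at an unadjusted p below 0.05). They summed to 164 to 239 RFU in hearts, against 73.3 to 146 RFU in aortae. In vessel over larva 3 plasmatocyte markers were higher, 0 lower and 5 did not pass (median 0.59), and of the 2 crystal cell markers tested 0 were higher and 1 was lower. Nephrocyte markers, of which 5 of 6 were tested, had a median of 0.22 in heart over aorta. In vessel over larva all 5 were higher (median 0.99), against 12.6% of all genes tested. In the larva sns, Amnionless and Klf15 were above detection on 0 arrays and pyd on 1. They were thus tested through the vessel alone, so the detection filter largely set their direction. The part of blood cells and nephrocytes in the signal of the 10 genes was not tested.

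Medians of the midgut list in heart over aorta were 3.68, 0.77, -4.28 and -1.57 by array, and those of the salivary gland list were 3.23, 2.27, -3.08 and 0.15. The part of RNA of these tissues in the signal of the 10 genes was not tested. Summed midgut signal ran from 62.9 to 2031 RFU in hearts, against 89.4 to 2251 RFU in aortae.

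The 9 genes with a reference entry have 18 neighbours on the arrays. In heart over aorta 8 of these were measured. The mean log2 ratio was positive in 6 of the 8, the highest being Lst beside CG4927 (0.75), and 0 were positive on all 4 arrays (11.8% of all genes were). In vessel over larva 10 were tested, with 2 higher and 3 lower. The higher ones were Amnionless beside CG3625, a nephrocyte marker whose product serves protein uptake (at least 1.84-fold, limma adjusted p = 0.0186), and CG34408 beside CG15308 (at least 1.33-fold, limma adjusted p = 0.0288), both above detection in the larva on 0 arrays. The lower ones were CG2962, on the other side of CG15308 (log2 -1.13), CG30288, beside CG30289 (at least 1.51-fold, above detection in the vessel on 0 arrays), and Lst, a hormone gene beside CG4927 (log2 -4.48). CG15308 and CG34408, and likewise CG4927 and Lst, are thus next to each other with opposite signs in vessel over larva.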

How the data were processed

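The spot intensities, per the file headers, are foreground and local background in RFU for both dyes. The authors' deposited log2 ratios gave aorta over heart and vessel over larva, set against the scanner values of each array (r of 0.921 to 0.963 in size, medians of -0.0175 to 0.0054). Their background step and centring are not given in the sources used here. The submitters' processing notes name limma. Unmapped columns: 0. Here RFU was scaled by 36.9 to a 16-bit range, corrected by normexp (offset 50, or 1.35 RFU) and normalised by loess (span 0.3, 4 iterations). A gene was tested where it was above detection on at least 2 of 4 arrays in 1 RNA, and its brightest oligonucleotide stood for it. Each comparison was fitted on its own 4 arrays in limma 3.58.1 (R 4.3.3), with a dye coefficient and 2 residual degrees of freedom, because earlier results on these data had found that dye effects differ between the sets. P values were adjusted by Benjamini and Hochberg over all genes tested. The number of arrays limits the precision. Nothing in the labels ties the pools to separate cultures, so p measures the spread between pools.

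Genes, lists and tests were chosen with earlier results of these data known. Named beside the 10 genes were the nearest profiles, the neighbours and up to 4 genes of a list by smallest adjusted p. The DH44 and GNBP lists were added once the annotation was read, and the list of annotated serine-type endopeptidases replaced one by protein sequence, for which no table was used here. The reference gave names, arms and order of genes only, since the files cite older releases. A block of 553 spots was out of place on 3 arrays and held 0 of the 10 genes. It was kept in the fits used, so shares of all genes and values of other genes can include it. With it left out, 2563 genes passed in vessel over larva, against 2640, and 8 in heart over aorta, against 7 (limma). The steps were tested on simulated data.

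The labels number the replicates 1 to 4 in both RNAs of a comparison, and both RNAs of a number share an array. On the vessel arrays the deviations of same-numbered channels correlated at 0.681, 0.305, 0.528 and 0.467, and on the heart arrays at -0.396, 0.258, 0.023 and 0.31. The ratio within an array keeps the pairing.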

Additional observations from a re-analysis of the deposited data

How the results depend on the processing

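In dorsal vessel over whole larva, CG15308 was lower past the test under all 15 alternatives (log2 -4.49 to -2.58). CG9877 and CG4927 missed it only with an offset of 50 RFU as deposited (-1.33 and 0.29, adjusted p = 0.0938 and 0.0801), and CG3625 only without the replicate block (adjusted p = 0.0879). CG30148 missed it under 7 of 15 alternatives and CG12868 under 5, while CG30289 passed under 6 and CG7222 under 3. CG12656 (0.08) turned to -0.01997 with no background correction, and without 1 replicate it ran from -0.08588 to 0.2551. Of the 10 genes, 4 were higher in the fit used, 2 to 4 without 1 replicate and 1 in separate channels without the replicate block; 2 were lower, and 1 with the literal offset. Over all genes 2640 passed, 939 higher and 1701 lower (64.4% lower), against 1423 with the literal offset, 771 higher and 652 lower (45.8% lower), and 1329 to 2245 without 1 replicate.

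In heart over aorta 7 genes passed (1526 at an unadjusted p below 0.05). With no background correction 1 passed, with no dye coefficient 11, with detection required on all 4 arrays 27, with all 8 arrays in 1 fit 133 and in separate channels without the replicate block 137. By limma, 0 passed with median centring (1393 unadjusted), on the authors' deposited log2 ratios (1648), with no filter (1953) and without any 1 replicate (915 to 1136). The causes were not tested. With the literal offset the ratio of CG15537 was 0.50, against 2.71, because an offset above the signal compresses it; dim genes are limited in this way.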
